A study of Mus musculus with 6 samples.

Results

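The mitochondrial respiratory chain genes of YFP+Mac-1+c-Kit+ leukemia-initiating cells (LICs) were compared between Asic3-null-labelled and WT-labelled libraries. Genes were taken from the deposited RPKM table by symbol, as those beginning with Nduf, Uqcr, Cox4, Cox5, Cox6, Cox7, Cox8 or Atp5, together with Sdha, Sdhb, Sdhc, Sdhd and Cyc1. This gave 101 of the 27179 genes listed, and 96 of them had a mean of at least 1 RPKM (a read count divided by the length of the gene and the depth of the library) over the 6 libraries, as did 12037 genes in all. The 101 genes were 49 of complex I, 4 of complex II, 10 of complex III, 20 of complex IV and 18 of complex V. Beside the subunit genes, the symbols took in 8 assembly factors of complex I (the Ndufaf genes) and 7 further copies of subunit genes (Ndufa11b, Ndufb4b, Ndufb4c, Ndufs5-ps, Ndufs6b, Uqcrh-ps1 and Atp5c1-ps). Ndufa4 and Ndufa4l2 were placed in complex IV, where their proteins reside, and not in complex I as their names have it.

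Lin- fetal liver cells of Asic3-/- or Asic3+/+ mice had been transduced with a retrovirus that carries the MLL-AF9 fusion gene and YFP, and then transplanted into lethally irradiated C57BL/6 recipients. Both groups thus shared the oncogene, the transplantation and the sort, and differed by label only in Asic3, which encodes an acid-sensing ion channel. Total RNA of bone marrow LICs was sequenced from 3 libraries per label, given as strain C57BL/6 and 8 weeks of age. The sort on YFP removes cells of the host, and the labels do not say whether the libraries of a group came from separate recipients.

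The respiratory chain passes electrons from nutrients to oxygen in the inner mitochondrial membrane. Complex I takes them from NADH and complex II from succinate, coenzyme Q carries them to complex III, cytochrome c carries them on to complex IV, and the protons pumped on the way drive the ATP synthase, complex V. Most subunits are encoded in the nucleus, but the proton-pumping core of complex I, cytochrome b, the catalytic centre of complex IV and part of the membrane portion of complex V are encoded by mitochondrial DNA. None of the mitochondrially encoded subunit genes was among the genes listed, so the comparison concerns nuclear genes only. In leukemia, stem-like cells are known to differ from their progeny in how much they rely on respiration, which is why the chain is of interest in LICs.

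Many nuclear respiratory genes are known to share short promoter elements bound by NRF1, by ETS family factors such as GABPA, and by YY1. The promoters printed here show how such elements lie in single members. Promoter sequences (RefSeq, GRCm38.p6, from 250 bases before to 50 bases after the annotated start) were at hand for 67 of the 81 tested subunit genes, 72 promoters in all. CGCATGCG, the NRF1 core, lay in 12.5% of these, against 4.11% of the promoters of all tested genes and 1.87% of all promoters of the table. CCGGAAG, an ETS core, lay in 23.6%, against 19% and 8.86%. AAGATGGCG, a YY1 core, lay in 9.72%, against 3.3% and 1.4%. Both strands were searched, no match overlapped another, and 45 of the 72 promoters held none. In the 7 promoters with the YY1 core, 6 matches lay from 22 to 35 bases after the start and the other, of Atp5j, lay 88 bases before it. A match is a run of letters and was not tested as a binding site.

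The printed promoter of Atp5j (coupling factor of the peripheral stalk of complex V, chr16:84834927-84835226, minus strand), 1 of 2 for this gene, was the only one with all 3 elements. Those of Cox6a1 (chr5:115348909-115349208, minus strand) and Uqcr11 (chr10:80406772-80407071, minus strand) held the NRF1 and ETS cores. That of Atp5b (chr10:128083057-128083356, plus strand), the most abundant member of complex V, held none. Matches are in capitals, on either strand.
Atp5j: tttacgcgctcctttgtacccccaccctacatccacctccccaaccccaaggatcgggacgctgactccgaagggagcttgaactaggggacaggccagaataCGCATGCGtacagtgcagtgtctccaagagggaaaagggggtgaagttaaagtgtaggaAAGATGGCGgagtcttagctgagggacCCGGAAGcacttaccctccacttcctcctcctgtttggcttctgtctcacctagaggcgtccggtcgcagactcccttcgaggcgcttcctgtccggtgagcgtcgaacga
Cox6a1: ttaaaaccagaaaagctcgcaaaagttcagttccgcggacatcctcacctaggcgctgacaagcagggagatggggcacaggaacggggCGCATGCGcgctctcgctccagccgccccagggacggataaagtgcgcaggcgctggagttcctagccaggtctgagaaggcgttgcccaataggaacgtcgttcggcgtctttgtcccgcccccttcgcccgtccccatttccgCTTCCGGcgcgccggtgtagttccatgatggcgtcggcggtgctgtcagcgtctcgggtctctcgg
Uqcr11: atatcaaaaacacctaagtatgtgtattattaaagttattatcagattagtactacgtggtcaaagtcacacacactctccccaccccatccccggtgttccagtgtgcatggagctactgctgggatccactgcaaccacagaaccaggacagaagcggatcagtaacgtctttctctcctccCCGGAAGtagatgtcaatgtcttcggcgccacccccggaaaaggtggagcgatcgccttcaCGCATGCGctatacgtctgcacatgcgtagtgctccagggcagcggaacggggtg
Atp5b: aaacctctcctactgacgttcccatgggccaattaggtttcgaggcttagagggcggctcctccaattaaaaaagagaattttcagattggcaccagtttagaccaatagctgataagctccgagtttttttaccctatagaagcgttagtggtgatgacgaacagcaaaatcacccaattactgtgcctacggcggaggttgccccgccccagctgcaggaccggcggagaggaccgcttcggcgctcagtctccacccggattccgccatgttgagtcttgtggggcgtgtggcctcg

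The 27 subunit genes with any of the 3 elements had a median log2 fold change (labelled Asic3-null minus WT, on log2(RPKM + 1)) of 0.08, and the 40 without had one of 0.15. The median was thus not larger for genes with an element. The share above 0 was larger, at 22 of the 27 against 29 of the 40. By element, the medians were 0.07 for the NRF1 core, 0.14 for the ETS core and 0.08 for the YY1 core. Of the genes encoding the factors themselves, Yy1 had 76.9, 74.1 and 66.1 RPKM in the Asic3-null-labelled libraries and 52.4, 53.0 and 62.2 in the WT-labelled ones (log2 fold change 0.37, SE 0.13, adjusted p = 0.213 from limma). Gabpa had 25.9, 19.8 and 24.8 against 17.2, 20.1 and 18.1 RPKM (adjusted p = 0.362 from limma), and Nrf1 had 20.1, 15.7 and 16.0 against 12.8, 14.8 and 14.2 RPKM (adjusted p = 0.433 from limma). None of these passed the test. Gabpa and Atp5j are divergent neighbours that share 397 exon bases on opposite strands, and the libraries do not mark strand.

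The libraries held 1947168 to 2381861 reads, as recovered from the RPKM steps, and the tested respiratory genes had a median of 212 reads per library. Asic3 itself went against the labels, with 9.12, 4.11 and 6.58 RPKM in the Asic3-null-labelled libraries and 1.22, 1.85 and 0.435 RPKM in the WT-labelled ones. The summed RPKM of the Y-linked genes Eif2s3y, Ddx3y, Kdm5d and Uty was 0 in all 3 Asic3-null-labelled libraries and 81.4 to 118.2 in the WT-labelled ones, so that genotype label and sex cannot be told apart. The sorted cells expressed Ptprc at 29.2 to 60.2 RPKM, while Cd3e was at 0. Of the 6 genes listed for cells of the gate, 3 had a log2 fold change above 0 and 3 below. Itgam (Mac-1) was called lower in the Asic3-null-labelled libraries, at 12.3 to 16.9 RPKM against 55.1 to 89.5, and Meis1 was called higher, at 21.7 to 35.3 against 14 to 14.9 RPKM (adjusted p = 0.0367 from limma, 0.0761 with a replicate block and 0.0244 to 0.127 with 1 library left out). Kit was at 14.4 to 20.4 against 8.97 to 15.3 RPKM and Cd34 at 152.4 to 153.8 against 119.4 to 152.2 RPKM, and neither was called. Hoxa9 was lower without overlap, at 42.3 to 67.1 against 73.5 to 87.8 RPKM. It was not called either (log2 fold change -0.58, adjusted p = 0.151 from limma). In other lists, 20 of 24 tested neutrophil granule genes and 4 of 8 monocyte and macrophage genes were called lower in the Asic3-null-labelled libraries. Of all 12037 tested genes, 340 were called lower. The log2 fold change was above 0 for 2 of the 24 granule genes, Cebpe (0.40) and Ctsg (0.43), and neither was called. The summed RPKM of the 25 granule genes was 4101 to 5447 in the Asic3-null-labelled libraries and 9958 to 11440 in the WT-labelled ones, and that of the 8 monocyte genes 1230 to 1378 and 1737 to 1934. The erythroid list (27.3 to 33.7 against 32.0 to 37.3), the T cell list (0.498 to 0.741 against 0 to 0.726) and the B cell list (37.3 to 47.6 against 42.0 to 50) overlapped. The part of the myeloid markers in the results given here was not tested, and in bulk RNA fewer cells of a type and less RNA per cell cannot be told apart.

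For nearly all respiratory chain genes, the difference by label did not pass the test against the spread between libraries. Of the 96 tested members, 1 was called at an adjusted p under 0.05 (limma on log2(RPKM + 1), Benjamini-Hochberg adjustment over all 12037 genes), which was Cox6a2 and was higher in the Asic3-null-labelled libraries. Cox6a2 was also the 1 tested member with a mean under 1 RPKM in a group, the WT-labelled one, so it reached the test only through the libraries where it was high, and its call is given as a description and supports nothing on the chain. Over all tested genes, 3.35% were called in either direction and 0.523% were called higher. At an unadjusted p under 0.05, 2 members were higher (Cox6a2 and Atp5mpl) and 0 lower, against 6.43% of all genes higher and 9.45% lower. The groups did not overlap for 4 members, all of them higher in the Asic3-null-labelled libraries (Cox6a2, Ndufb9, Ndufb11 and Sdha), against 11.2% of all genes higher and 11.4% lower. As shares of 96, the 2 genes with an unadjusted p under 0.05 and the 4 without overlap were smaller than 6.43% and 11.2%. The 1 call was a smaller share than the 3.35% called in either direction. It was a larger share than the 0.523% called higher, but rests on a single gene. The log2 fold change was above 0 for 70 of the 96 members (72.9%), as it was for 54.5% of all tested genes, and its median was 0.13, against 0.03 over all tested genes and beside a median SE of 0.15 for a single member. Values for single members ran from -0.34 (Ndufaf3) to 1.51 (Cox6a2).

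**Figure D1:**
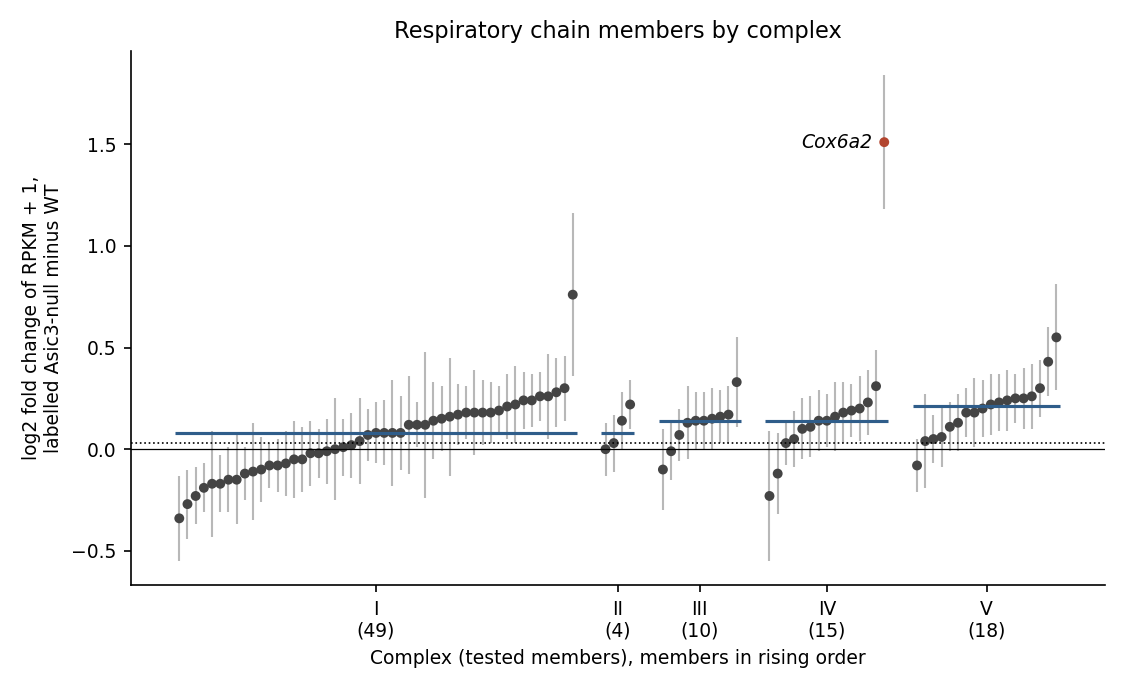
Log2 fold change of RPKM + 1 (labelled Asic3-null minus WT) with its standard error for each of the 96 tested members, ordered by value within complexes I to V. Blue bars are the medians of the complexes, which were 0.08 (complexes I and II), 0.14 (III and IV) and 0.21 (V), the dotted line is the median of all tested genes (0.03), and Cox6a2 (red) is the only member called.

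Complex I, the entry point for electrons from NADH, showed no called gene among its 49 tested members. The log2 fold change was above 0 for 29 and below 0 for 20, with a median of 0.08. Of the 7 core subunits encoded in the nucleus, which carry the flavin and the iron-sulfur clusters, the largest difference was that of Ndufs7, next to the coenzyme Q pocket. Ndufs7 had 189.2, 217.7 and 166.3 RPKM in the Asic3-null-labelled libraries and 171.3, 126.7 and 169.4 RPKM in the WT-labelled ones (log2 fold change 0.30, SE 0.16, adjusted p = 0.401 from limma). The groups overlapped through the third Asic3-null-labelled library.

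Ndufv1, which binds NADH and the flavin, had 134.6, 131.9 and 112.7 against 104.4, 96.7 and 119.0 RPKM (log2 fold change 0.24, SE 0.13). Ndufs3 had 56.5, 58.5 and 50.7 against 51.1, 35.5 and 51.2 RPKM (0.28, SE 0.17). In both the lowest Asic3-null-labelled library lay under the highest WT-labelled one. The iron-sulfur subunits Ndufv2, Ndufs1 and Ndufs8 lay near 0 or below it, with log2 fold changes of 0.02 for Ndufv2 (SE 0.16), -0.05 for Ndufs1 (SE 0.16) and -0.12 for Ndufs8 (SE 0.13). The core of complex I therefore did not move one way, and the signs of Ndufv2 and Ndufs1 turned when single libraries were left out.

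Among the 29 accessory subunits of complex I, which surround the core and stabilise it, 17 had a log2 fold change above 0 and 12 below. Ndufb9, of the membrane arm, had 204.3, 184.4 and 177.9 RPKM in the Asic3-null-labelled libraries and 149.8, 147.5 and 177.1 RPKM in the WT-labelled ones, means of 188.9 ± 13.8 and 158.1 ± 16.5 RPKM (SD, n = 3 each; exact two-sided permutation p = 0.10, below which 3 against 3 cannot go). The groups did not overlap, but the gap between them was under 1 RPKM and the adjusted p was 0.352 (limma). Ndufb11, X-linked and also of the membrane arm, had 225.8, 225.4 and 221.2 against 216.9, 204.1 and 196.6 RPKM, a log2 fold change of 0.12 (SE 0.11).

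Ndufb10 was the most abundant complex I member at a mean of 278.7 RPKM, with 266.6, 294.9 and 227.3 against 303.3, 262.0 and 318.0 RPKM (log2 fold change -0.17, SE 0.14). Ndufab1, the mitochondrial acyl carrier protein, was the least abundant subunit gene at 5.18 RPKM and had the largest log2 fold change of the complex, 0.76 (SE 0.40, adjusted p = 0.402 from limma). Its values were 5.94, 8.92 and 4.79 against 5.94, 1.28 and 4.22 RPKM, from 11, 17 and 9 against 10, 2 and 8 reads, and its log2 fold change was 0.29 without the second WT-labelled library. The 8 assembly factors, which help to build the complex and are not part of it, had a median log2 fold change of -0.05, from -0.34 (Ndufaf3) to 0.22 (Ndufaf6), and none was called.

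The copies of subunit genes are listed beside the genes they resemble, and the counting could divide reads between them. Ndufb4c, with 0.951 to 2.81 RPKM, Ndufb4b, with 3.66 to 8.66 RPKM, and Ndufb4 itself, with 12.4 to 14.9 RPKM, are such a family. Ndufs5 had 16.1 to 23.2 RPKM and its copy Ndufs5-ps 18.5 to 34.6 RPKM. Levels of these genes are uncertain, since how reads were assigned between copies is not given in the sources used here.

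Complex II, which oxidises succinate and links the tricarboxylic acid cycle to the chain, was the most even of the complexes. Its 4 genes had mean levels between 111.9 RPKM (Sdhb) and 146.5 RPKM (Sdhd), a ratio of 1.31 between highest and lowest. Sdha, the flavoprotein that holds the succinate site, had 116.9, 126.3 and 118.9 RPKM in the Asic3-null-labelled libraries and 95.3, 101.1 and 115.8 RPKM in the WT-labelled ones, means of 120.7 ± 4.94 and 104.1 ± 10.6 RPKM (SD, n = 3 each). The groups did not overlap, by a gap of about 1 RPKM (log2 fold change 0.22, SE 0.12, adjusted p = 0.426 from limma).

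Sdhb, the iron-sulfur protein, had 122.7, 121.6 and 95.6 against 103.2, 112.4 and 116.0 RPKM. Of the membrane anchors, Sdhc had 98.5, 125.0 and 115.9 against 106.9, 112.4 and 120.0 RPKM, and Sdhd had 157.0, 157.5 and 144.2 against 123.2, 131.1 and 166.0 RPKM. In these 3 genes the groups overlapped, with log2 fold changes of 0.03 (SE 0.14), -0.00 (SE 0.13) and 0.14 (SE 0.14). The signs for Sdhb and Sdhc changed with the libraries used and, for Sdhc, with the scaling.

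Complex III, which hands electrons from coenzyme Q to cytochrome c, had 8 of 10 members above 0, a median of 0.14 and no call. Its 2 nuclear redox subunits lay close together. Cyc1, cytochrome c1, had 159.2, 170.2 and 138.4 against 123.5, 138.5 and 162.4 RPKM (log2 fold change 0.14, SE 0.14). The log2 fold change of Cyc1 was 0.05 without the first WT-labelled library and 0.25 without the third. Uqcrfs1, the Rieske iron-sulfur protein, had 138.2, 127.6 and 123.9 against 121.0, 97.0 and 130.9 RPKM (0.17, SE 0.14). Both overlapped between the labels.

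Among the smaller subunits, Uqcr11 had a log2 fold change of 0.33 (SE 0.22, adjusted p = 0.504 from limma), which was 0.10 without the second Asic3-null-labelled library and 0.16 without the second WT-labelled one. It had 122.8, 204.1 and 128.9 RPKM in the Asic3-null-labelled libraries and 128.7, 93.1 and 135.6 RPKM in the WT-labelled ones, so that a single library of each label stood apart. Uqcrh, the hinge protein that docks cytochrome c1, had 174.8, 186.1 and 168.5 against 171.6, 137.3 and 165.6 RPKM. Uqcrq was the most abundant member, with 349.7, 366.0 and 328.6 against 294.5, 282.0 and 381.8 RPKM, and Uqcrb the least abundant subunit gene, at a mean of 41.9 RPKM. The copy Uqcrh-ps1 had 31.9, 26.7 and 43.3 against 30.3, 28.7 and 32.2 RPKM.

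Complex IV, cytochrome c oxidase, reduces oxygen to water. Its nuclear subunits do not carry out the catalysis but several exist as pairs of isoforms, with a common form and a form known from muscle, testis or lung. The common form was the abundant one in these LICs for every pair. Cox4i1 had the highest mean of all members over the 6 libraries, 839.5 RPKM against 781.4 RPKM for Atp5b, which was higher in the first and second Asic3-null-labelled libraries. Cox4i1 had 828.2, 928.1 and 791.5 RPKM in the Asic3-null-labelled libraries and 843.3, 778.3 and 867.8 RPKM in the WT-labelled ones (log2 fold change 0.03, SE 0.11). Its partner Cox4i2, known from lung and from low oxygen, was at 0 to 0.654 RPKM, at most 1 read in a library. Cox8a had 523.0, 596.2 and 476.6 against 525.3, 427.8 and 499.1 RPKM, while Cox8b was above 0 in 1 library (1.31 RPKM, 1 read) and Cox8c was at 0 in all 6. Cox7b had 123.8, 129.2 and 95.3 against 87.4, 95.4 and 112.2 RPKM and Cox7b2 was at 0 in all 6. Ndufa4 had 294.9, 305.5 and 220.7 against 255.2, 229.6 and 272.2 RPKM, and Ndufa4l2 was above 0 in 1 library (0.439 RPKM, 1 read). Cox4i2, Cox7b2, Cox8b, Cox8c and Ndufa4l2 were the 5 members under 1 RPKM and were not tested.

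Cox6a2, the isoform of subunit 6a known from heart and skeletal muscle, was the 1 member called (Entrez 12862, GRCm38 chr7:128205435-128206366). It had 2.62, 7.01 and 4.52 RPKM in the Asic3-null-labelled libraries and 0.722, 0.779 and 1.28 RPKM in the WT-labelled ones, means of 4.72 ± 2.20 and 0.928 ± 0.308 RPKM (SD, n = 3 each; exact two-sided permutation p = 0.10). The groups did not overlap. The log2 fold change was 1.51 (SE 0.33, 95% confidence interval 0.76 to 2.25), with an adjusted p of 0.0447 from limma's moderated test with Benjamini-Hochberg adjustment. Its WT-labelled mean lay under the minimum of 1 RPKM, and the mean over all 6 libraries, 2.82 RPKM, passed that minimum only through the Asic3-null-labelled libraries.

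The reads behind Cox6a2 were few, at 4, 11 and 7 against 1, 1 and 2. Of these 26 reads, 22 (84.6%, exact Clopper-Pearson 95% interval 65.1 to 95.6%, which covers counting error only) fell in the Asic3-null-labelled libraries, which held 52.3% of all reads. The call was lost when any library other than the first Asic3-null-labelled one was left out, with an adjusted p of 0.148 and 0.15 without Asic3-null-labelled library 2 and 3, and of 0.139, 0.125 and 0.0733 without WT-labelled library 1, 2 and 3 (limma). It was lost as well with a replicate block (adjusted p = 0.0761), with voom on the recovered reads (0.121) and with no filter on low values (0.329), all from limma. The log2 fold change stayed above 0 in each of these.

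An exon of Itgad, the integrin alpha D gene on the other strand, shares 70 exon bases with Cox6a2, and the libraries do not mark strand. Itgad had 2, 3 and 1 reads in the Asic3-null-labelled libraries and 1, 0 and 2 in the WT-labelled ones. In all, 24 of the 96 members found in GENCODE M21 share exon bases with another listed gene, each time on the opposite strand.

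The partner Cox6a1 had 384.9, 436.4 and 325.2 RPKM in the Asic3-null-labelled libraries and 338.2, 365.2 and 399.4 RPKM in the WT-labelled ones (log2 fold change 0.05, SE 0.14), and overlapped. Cox6a2 thus made up 0.676%, 1.58% and 1.37% of the subunit 6a RPKM in the Asic3-null-labelled libraries and 0.213%, 0.213% and 0.32% in the WT-labelled ones, and the total of the 2 isoforms was set by Cox6a1.

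**Figure D2:**
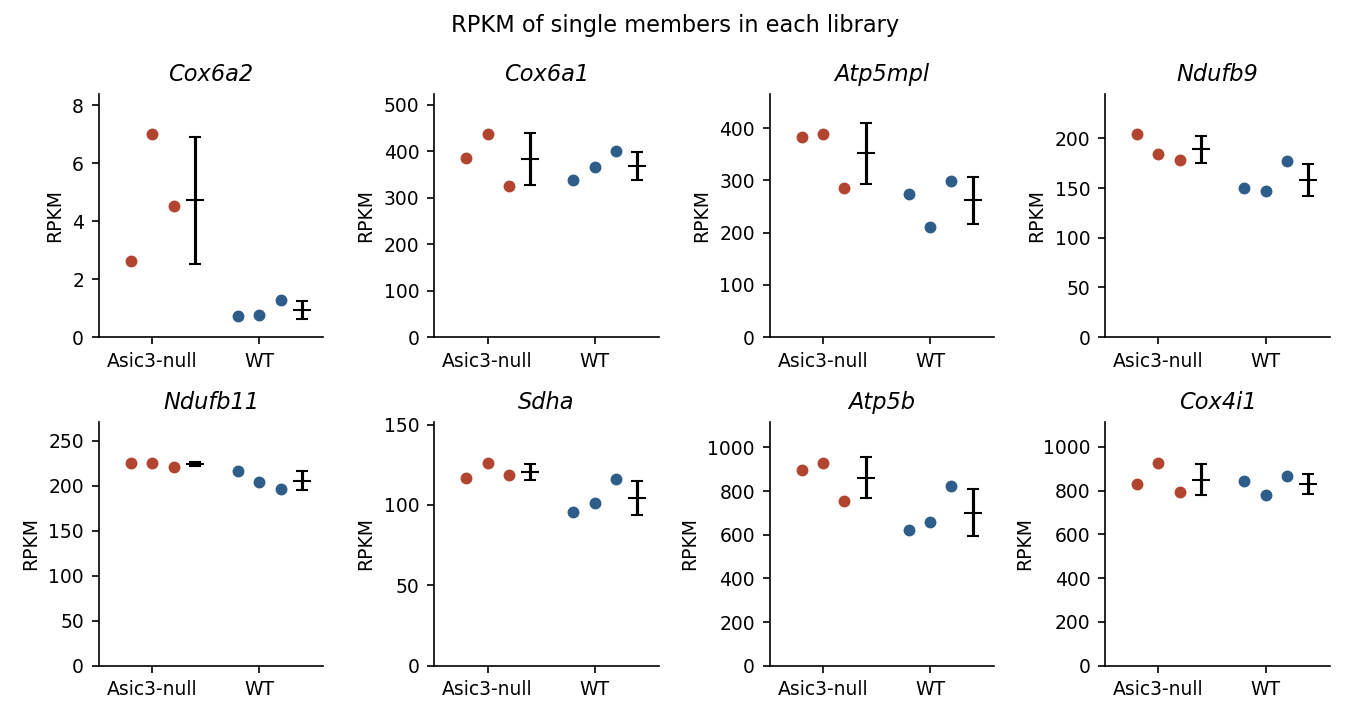
RPKM of 8 members in each library (points; red, labelled Asic3-null; blue, labelled WT), with the mean and SD of the 3 libraries beside them; each axis starts at 0. Cox6a2, Ndufb9, Ndufb11 and Sdha do not overlap between the labels, Cox6a1, Atp5mpl, Atp5b and Cox4i1 do, and Cox6a2 lies below 8 RPKM while Cox6a1 lies above 300 RPKM.

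The other isoform pairs of complex IV did not pass the test. Cox6b2, known from testis, was well expressed here at 97.2, 109.1 and 77.6 against 64.6, 91.8 and 72.0 RPKM (log2 fold change 0.31, SE 0.18, adjusted p = 0.425 from limma). It made up 18 to 27.8% of the subunit 6b RPKM, with Cox6b1 at 294.2, 364.1 and 295.1 against 277.8, 239.0 and 327.0 RPKM as the main form. Cox7a1, the muscle form of subunit 7a, had 1.18, 2.29 and 2.33 against 2.60, 1.40 and 3.46 RPKM (log2 fold change -0.23, SE 0.32). The groups overlapped, with the highest value in the third WT-labelled library. The log2 fold change of Cox7a1 was -0.03 without that library or without the first Asic3-null-labelled one. It was -0.48 without the second WT-labelled library.

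Cox7a2 had 153.5, 154.2 and 125.9 against 134.3, 109.7 and 149.6 RPKM. Cox7a2l, whose protein joins complexes III and IV into supercomplexes, had 130.4, 135.2 and 126.0 against 133.3, 111.7 and 100.4 RPKM (log2 fold change 0.19, SE 0.13). Over all 15 tested members of complex IV the log2 fold change was above 0 for 13, with Cox7a1 and Cox7c below, and the median was 0.14.

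Complex V, the ATP synthase, had the highest median, 0.21, and 17 of its 18 members above 0, the exception being Atp5pb of the peripheral stalk (-0.08, SE 0.13). No member was called. In the catalytic F1 head, Atp5b (the catalytic beta subunit) had 898.5, 930.4 and 754.9 RPKM in the Asic3-null-labelled libraries and 621.1, 659.8 and 823.4 RPKM in the WT-labelled ones, means of 861.3 ± 93.5 and 701.5 ± 107.4 RPKM (SD, n = 3 each). The log2 fold change was 0.30 (SE 0.14, adjusted p = 0.344 from limma), and the third library of each label made the groups overlap.

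Atp5a1, the alpha subunit, had 672.7, 643.4 and 625.1 against 495.9, 519.3 and 627.2 RPKM (log2 fold change 0.25, SE 0.12, adjusted p = 0.361 from limma). Atp5c1, the gamma subunit of the rotating stalk, had 144.8, 136.1 and 133.8 against 114.6, 113.8 and 138.8 RPKM (0.18, SE 0.12). These overlapped in the same way as Atp5b, through the high value of WT-labelled library 3.

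Atp5mpl, the small proteolipid of the membrane part, was the only complex V gene with an unadjusted p under 0.05. It had 383.4, 388.8 and 284.7 RPKM in the Asic3-null-labelled libraries and 274.9, 211.1 and 299.7 RPKM in the WT-labelled ones, a log2 fold change of 0.43 (SE 0.17, 95% confidence interval 0.04 to 0.82, adjusted p = 0.273 from limma). The groups overlapped through the third library of each label. The log2 fold change was 0.28 without the second WT-labelled library.

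The c subunit, which forms the rotor ring, is encoded by 3 genes for the same mature protein. Atp5g3 made up 93.7 to 95.2% of their RPKM in every library, with 532.4, 603.5 and 424.6 against 440.6, 364.6 and 498.3 RPKM. Atp5g1 had 26.4, 34.8 and 16.2 against 14.2, 17.2 and 18.5 RPKM, a log2 fold change of 0.55 (SE 0.26, adjusted p = 0.340 from limma), with overlapping groups. Without the second Asic3-null-labelled library its log2 fold change was 0.31, and without the third 0.84. Atp5g2 had 7.34, 5.84 and 7.90 against 8.09, 4.76 and 7.83 RPKM (0.04, SE 0.23). Atp5g1 made up 3.61 to 5.41% of the RPKM of the 3 genes in the Asic3-null-labelled libraries and 3.08 to 4.44% in the WT-labelled ones, and these shares overlapped.

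The levels of the members differed between the libraries of a label as well as between the labels. The second Asic3-null-labelled library held the highest value of 51 of the 96 members, and the third WT-labelled library of 18. The lowest value lay in the second WT-labelled library for 31 members, in the first WT-labelled library for 28 and in the third Asic3-null-labelled library for 21. The median deviation of the members from their mean over the 6 libraries, on log2(RPKM + 1), was 0.07, 0.17 and -0.07 in the Asic3-null-labelled libraries and -0.08, -0.14 and 0.08 in the WT-labelled ones, so the groups overlapped. Over all tested genes it lay between -0.02 and 0.02 in every library. Without the second WT-labelled library the median log2 fold change of the members was 0.05 and 60 of 96 lay above 0, and without the second Asic3-null-labelled library it was 0.06 with 59 above 0. Without the third Asic3-null-labelled library it was 0.19 with 72 above 0.

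Of the 96 tested members, 66 had a gene length under 1000 bases, 53 had a mean of at least 100 RPKM, and 37 had both, and other short genes and other abundant genes were also highest in the second Asic3-null-labelled library. The 1881 other tested genes with a gene length under 1000 bases had median deviations of -0.02, 0.12 and -0.06 in the Asic3-null-labelled libraries and 0.04, -0.06 and 0.03 in the WT-labelled ones. Their median log2 fold change was 0.01, against 0.14 for the 66 members under that length and 0.08 for the 30 members of 1000 bases or more. The 861 other tested genes with a mean of at least 100 RPKM had median deviations of -0.01, 0.12 and -0.05 against -0.05, -0.02 and 0.07. Their median log2 fold change was 0.05, and the 53 members at that level had one of 0.14. The part of gene length and abundance in the members' values was not tested further.

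**Figure D3:**
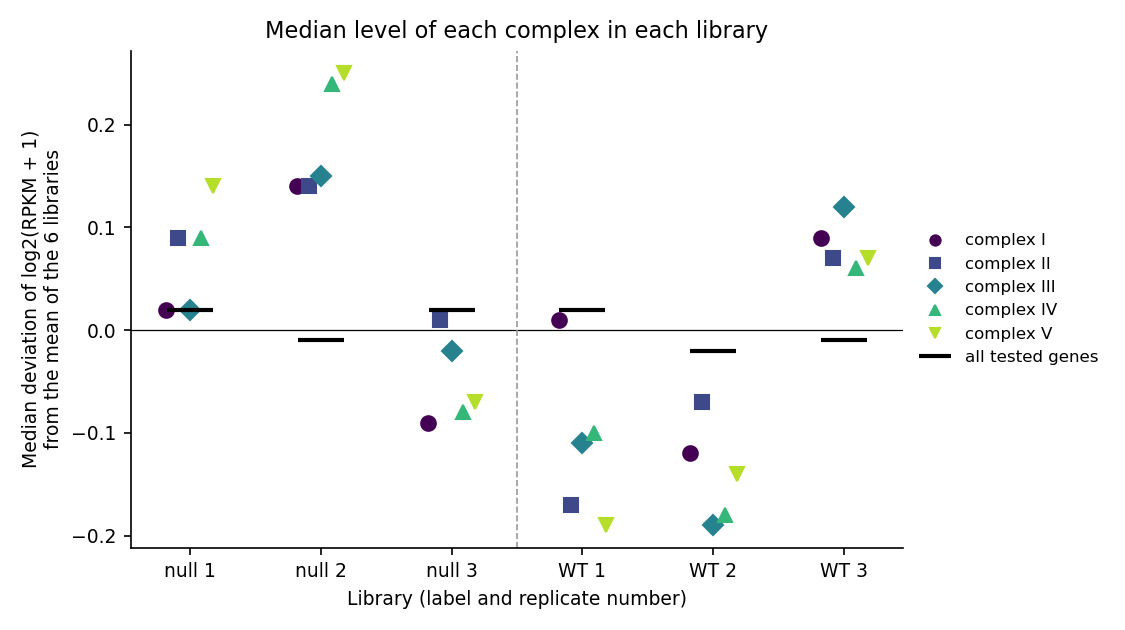
Median deviation of log2(RPKM + 1) from the mean of the 6 libraries for the tested members of each complex (symbols) and for all tested genes (black bars), by library. All 5 complexes were above 0 in the second Asic3-null-labelled library (0.14 to 0.25) and in the third WT-labelled library (0.06 to 0.12), and below 0 in the second WT-labelled library (-0.07 to -0.19), while all tested genes stayed within 0.02 of 0.

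Summed over the subunit genes of a complex, RPKM overlapped between the labels for every complex. Complex I had 4180, 4421 and 3703 RPKM in the Asic3-null-labelled libraries and 4007, 3610 and 4267 RPKM in the WT-labelled ones, a ratio of group means of 1.04. Complex V had 4414, 4817 and 3873 against 3533, 3512 and 4236 RPKM, a ratio of 1.16. The ratios were 1.07, 1.10 and 1.08 for complexes II, III and IV. All members together had 14177, 15513 and 12704 against 12670, 11928 and 14245 RPKM.

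Because a shift shared by all members of a library cancels within it, the complexes were also set against each other library by library. Complex V to complex I was 1.06, 1.09 and 1.05 in the Asic3-null-labelled libraries and 0.882, 0.973 and 0.993 in the WT-labelled ones, means of 1.06 ± 0.0230 and 0.949 ± 0.0591 (SD, n = 3 each), and the groups did not overlap. Without the 4 most abundant genes of complex V, which were Atp5b, Atp5a1, Atp5g3 and Atp5e, the ratio was 0.449, 0.469 and 0.443 against 0.383, 0.432 and 0.415 and still did not overlap. Of the 10 pairs of complexes, 3 did not overlap, all higher in the Asic3-null-labelled libraries, namely V to I, V to IV (1.32, 1.28 and 1.29 against 1.14, 1.22 and 1.27) and IV to I (0.801, 0.852 and 0.809 against 0.775, 0.8 and 0.784). In V to IV and in IV to I the gap between the nearest libraries of the 2 labels was smaller than the SD within either label. The same held for V to I without the 4 most abundant genes of complex V (SD 0.014 and 0.0247). In V to I with all genes the gap was smaller than the SD of the WT-labelled libraries only. Complexes II and III overlapped in every pair. These ratios are a description of sums over chosen members and carry no test, and the pairs share complexes.

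**Figure D4:**
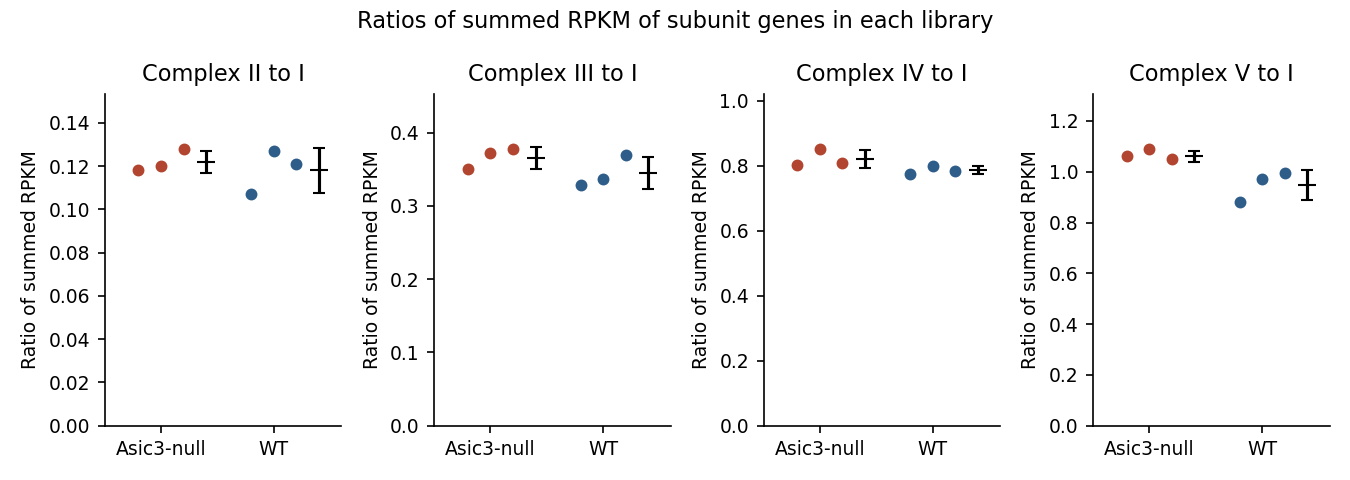
Ratio of the summed RPKM of the subunit genes of complexes II, III, IV and V to that of complex I in each library (points; red, labelled Asic3-null; blue, labelled WT), with the mean and SD of the 3 libraries; each axis starts at 0. Only the ratios of complex IV and complex V to complex I do not overlap, with complex V at 1.05 or more in the Asic3-null-labelled libraries and at 0.993 or less in the WT-labelled ones.

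Genes that serve the chain without being part of it gave 1 call, where 3.35% of all tested genes were called in either direction. Of 43 tested assembly factors of complexes I to V other than the Ndufaf genes, 0 were called by limma, 3 were higher and 0 lower at an unadjusted p under 0.05 (6.43% and 9.45% of all tested genes), and the median log2 fold change was 0.06. Pet117, of complex IV assembly, had 40.2, 37.8 and 33.1 RPKM in the Asic3-null-labelled libraries and 26.6, 19.1 and 26.2 in the WT-labelled ones (log2 fold change 0.62, SE 0.17, adjusted p = 0.103 from limma). Cox10, which makes heme O on the way to the heme A of complex IV, had 17.6, 24.1 and 21.3 against 12.5, 15.8 and 15.2 RPKM (0.50, SE 0.17, adjusted p = 0.205 from limma). Neither overlapped between the labels, and neither passed the test. Of the 43 genes, 7 were higher and 2 lower without overlap, beside 11.2% and 11.4% of all tested genes.

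Of 20 genes for the mobile carriers and coenzyme Q synthesis, Sqor, which feeds electrons from sulfide to coenzyme Q, was called lower. Of all 12037 tested genes, 340 were. Sqor had 6.57, 9.99 and 12 RPKM in the Asic3-null-labelled libraries and 21.3, 19.1 and 19.3 RPKM in the WT-labelled ones (log2 fold change -1.02, SE 0.21, adjusted p = 0.0373 from limma). The call was lost without any single library other than the third Asic3-null-labelled one (adjusted p from 0.0716 to 0.129, limma), with a replicate block (0.0825), with no intensity trend (0.0591), on untransformed RPKM (0.074 with moderation and 0.179 without) and with no filter on low values (0.258). The difference stayed below 0 in each of these. Coq8a, of coenzyme Q synthesis, had 8.05, 6.28 and 7.63 against 11.8, 12.5 and 10.1 RPKM (-0.58, SE 0.18, adjusted p = 0.15 from limma). The median of the list was 0.09, so that Sqor and Coq8a lay on the other side of 0 from most of their list. These 2 were the only genes of the list with an unadjusted p under 0.05, where 9.45% of all tested genes were lower. Cycs, cytochrome c itself, was listed at 0.706, 1.10 and 1.11 against 1.40, 2.01 and 2.21 RPKM (adjusted p = 0.385 from limma), a low level for a gene with many processed copies in the genome.

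Of 17 supercomplex and cristae genes, Cox7a2l among them, 0 were called by limma and 2 were lower at an unadjusted p under 0.05, beside 9.45% of all tested genes. Of the 17, 14 had a log2 fold change above 0 (82.4%), and the median was 0.17. Higd2a, an assembly factor of supercomplexes, had 164.9, 162.3 and 160.5 against 245.2, 191.0 and 239.1 RPKM (log2 fold change -0.46, SE 0.13, adjusted p = 0.109 from limma). Taz, which remodels the membrane lipid cardiolipin, had 14.9, 23.1 and 18.8 against 39.5, 27.1 and 22.6 RPKM (-0.61, SE 0.23, adjusted p = 0.247 from limma). Higd2a did not overlap between the labels, while Taz did.

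For mitochondrial DNA maintenance and transcription, 0 of 16 tested genes were called by limma or had an unadjusted p under 0.05, and the median was 0.11. Polg2 had 17.3, 9.85 and 9.18 against 12.7, 20.2 and 17.1 RPKM, and Polrmt, the mitochondrial RNA polymerase, had 15.3, 14.3 and 12.6 against 13.5, 8.33 and 12.2 RPKM. Of 10 tested nuclear regulators of respiratory genes 0 were called, and the median was 0.18. Of the 10, 1, Yy1, was higher at an unadjusted p under 0.05, beside 6.43% of all tested genes.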

How the data were processed

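RNA-seq of 3 libraries labelled Asic3-null and 3 labelled WT was analysed, grouped by the sample labels. Per the submitters' processing notes and methods, the authors used CASAVA 1.8.2 and TopHat2 2.0.12 with GRCm38 and deposited RPKM for each gene in a single table, with a column for each library. The tool used for counting is not given in the sources used here. The kit (TruSeq RNA v2) does not mark strand. Symbols came from RefSeq (25275 of 27179 genes) and GENCODE M21 (18). Read counts were recovered from the RPKM steps, and all 16825 expressed genes came out whole to within 0.0001 reads, at inferred library sizes of 2315406, 2381861 and 2348251 (Asic3-null) and 2102707, 1947168 and 2367414 (WT). Reads carry no molecular identifiers, so intervals cover counting error only.

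Genes averaging 1 RPKM or more were tested by limma 3.58.1 under R 4.3.3, on log2(RPKM + 1) (moderation with an intensity trend, label as the only term, two-sided, Benjamini-Hochberg over 12037 genes, threshold 0.05), and a fold change on this scale understates that of low genes. The step was tested on simulated data, and the outcome is not given here. Single values were compared by exact permutation (smallest two-sided p 0.10). P values measure the spread between these libraries, which may be technical. Same-numbered libraries correlated at 0.06, -0.06 and -0.12 in their deviations from group means, so numbers were not taken to pair libraries. Alternatives were a pseudocount of 0.1, other filters, scalings and scales, a replicate block, voom on recovered reads and each library left out. The members and lists were chosen with earlier results of these data known. The named genes are called members, in each complex those with the 3 lowest p and the highest and lowest level, isoform families, core subunits, checks, and the 2 lowest p of each other list, with an item under this rule not reported here. Ndufb11, Ndufaf3, Ndufaf6, Ndufb4, Ndufb4b, Ndufs5, Ndufs5-ps, Uqcrb, Atp5pb, Cox7c, Atp5e, Atp5j, Nrf1, Cycs, Itgad and the marker genes were named after their values were seen. Steps in Python 3.11.15 used numpy 2.4.6, pandas 2.3.3 and scipy 1.17.1.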

Additional observations from a re-analysis of the deposited data

How the results depend on the processing

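The count of called respiratory chain genes, 1 as reported, was also 1 with a pseudocount of 0.1, median-ratio scaling, quantile normalization and no intensity trend. It was 0 with no filter on low values, with a mean RPKM of at least 5 (which leaves Cox6a2 untested), on untransformed RPKM with or without moderation, with voom on recovered reads and with the replicate block, and 0 to 1 with 1 library left out. Members higher at an unadjusted p under 0.05 numbered between 1 and 10 over these alternatives, the most without the third library labelled Asic3-null. Over all genes, 403 were called as reported, 543 with voom on recovered reads, 439 with median-ratio scaling, 68 with no filter, 206 on untransformed RPKM with moderation and 4 on it without, 246 with the replicate block, and 203 to 293 with 1 library left out. The replicate numbers were not found to pair the libraries. Quantile normalization and median-ratio scaling moved the median of all genes to 0.06 and 0.02, and that of the members to 0.16 and 0.11.

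The medians of complexes I to V moved by less than the spread between libraries under every alternative on the log2 scale. With 1 library left out they ran from -0.02 to 0.13 (I), 0.01 to 0.16 (II), 0.05 to 0.22 (III), 0.05 to 0.23 (IV) and 0.14 to 0.28 (V), and that of complex I was below 0 without the second library of either label. With 1 library left out, the sign turned for 37 of the 96 tested members, among them, of those the text names by rule, Atp5g2 (-0.17 to 0.16), Cox4i1 (-0.03 to 0.08), Cox6a1 (-0.05 to 0.16), Ndufb4c (-0.11 to 0.41), Ndufs1 (-0.16 to 0.02), Ndufv2 (-0.10 to 0.18), Sdhb (-0.03 to 0.14), Sdhc (-0.08 to 0.09) and Uqcrh-ps1 (-0.06 to 0.28); the cause was not tested. Sdhc was also above 0 with quantile normalization (0.01) and on untransformed RPKM (a difference of 0.06 RPKM, with and without moderation). Depth limits the low members, as 7 tested members had under 10 reads in at least 1 library.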
